A study of Mus musculus with 29 samples.

Results

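The calcium and pacemaker channel genes described here are 7 genes: Cacna1c, Cacnb2 and Cacna2d1 of the L-type calcium channel, Cacna1g and Cacna1h of the T-type calcium channels, and Hcn2 and Hcn4 of the pacemaker channels. They were taken by symbol from the 23420 genes of the deposited count files, by a rule that uses no measured value. The members were nonetheless chosen with earlier results of these data known. None encodes a sodium channel. All 7 were found and passed the filter on low counts, which left 13765 genes to test. The counts come from 29 libraries of polyadenylated RNA from mouse heart (strain C57BL/6J, 12 weeks in the age label of every library), single-end and without strand information. The protocol names frozen ventricular apexes, while the tissue label says whole heart.

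The libraries formed 8 groups. Unstressed hearts came from wild-type mice (n = 4), mice with PKCδ ablated in the heart after birth (n = 3), mice with a germline PKCε knockout (n = 3), and mice with both together, called combined below (n = 4). The other 4 groups came from the same genotypes (n = 4, 3, 4 and 4) after 4 weeks of transverse aortic constriction (TAC), an operation that narrows the aorta and so puts a pressure load on the left ventricle. Prkcd encodes PKCδ and Prkce encodes PKCε, both isoforms of protein kinase C. The promoter or Cre line behind the cardiac PKCδ ablation is not given in the sources used here, the germline PKCε knockout applies to every cell of the animal, and no sham-operated group is labelled, so a TAC effect includes that of the operation. Each n counts libraries. Nothing in the labels says which animal a library came from, so the p-values rest on the spread among libraries, which may be technical.

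Voltage-gated calcium channels open when the membrane is depolarised. In ventricular myocytes the L-type channel, whose pore is Cacna1c, lets in the calcium that triggers release from the sarcoplasmic reticulum, and its β and α2δ subunits bring the pore to the surface and tune its gating. T-type channels, whose pores are Cacna1g and Cacna1h, open at more negative voltages, are known from the conduction system and the fetal ventricle, and are low in the healthy adult ventricle. HCN channels open on hyperpolarisation, bind cyclic AMP and carry the pacemaker current. Hcn4 is the main isoform of the sinoatrial node, and Hcn2 is the main one of the ventricle.

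Across the 8 groups Cacna1h varied most as a ratio of group means. It was 10.5-fold higher in unstressed combined hearts than in unstressed wild-type hearts and 4.04-fold higher in unstressed PKCδ-ablated hearts, while after TAC no genotype differed from wild type by the test. Cacnb2 fell after TAC in all 4 genotypes by 1.37-fold to 1.52-fold. Cacna2d1 fell after TAC in wild-type and PKCε-null hearts, was already 1.6-fold lower in unstressed combined hearts, and rose there after TAC. Hcn4 was 2.19-fold higher in unstressed PKCε-null hearts than in wild type and fell after TAC in them.

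The 7 genes lie on 7 chromosomes of GRCm38, in the RefSeq annotation. Cacna1c spans chr6:118587240-119197384 on the minus strand, Cacna1g chr11:94408391-94474400 on the minus strand, and Cacna1h chr17:25374285-25436334 on the minus strand. Cacnb2 spans chr2:14603861-14988811, Cacna2d1 chr5:15934264-16374511, Hcn2 chr10:79716634-79736108 and Hcn4 chr9:58822949-58863175, all on the plus strand. Because the libraries keep no strand, reads from overlapping genes cannot be told apart: 1.62% of the exon bases of Cacna1h overlap Tpsg1 and 7.32% of those of Cacnb2 overlap Gm10849, Gm10848 and Gm13269, all on the opposite strand. The other 5 genes had no such overlap in GENCODE vM21.

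The members within a family are similar enough to share stretches of coding sequence, which bears on how reads were assigned to them. The longest run of identical bases between Cacna1g and Cacna1h is 41 bases, at coding positions 1030 to 1070 of 7143 in Cacna1g and 1102 to 1142 of 7077 in Cacna1h, counted from the first coding base of the GENCODE vM21 transcript. It lies in the part that codes for the pore loop of the first repeat. The run is in capitals, with 30 bases of coding sequence on either side in lower case.
Cacna1g: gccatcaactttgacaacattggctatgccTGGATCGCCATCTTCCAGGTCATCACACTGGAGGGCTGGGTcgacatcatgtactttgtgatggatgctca
Cacna1h: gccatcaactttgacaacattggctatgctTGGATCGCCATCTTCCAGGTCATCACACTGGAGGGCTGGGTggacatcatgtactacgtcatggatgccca
Between Hcn2 and Hcn4 the longest identical run is 32 bases, at positions 1171 to 1202 of 2589 in Hcn2 and 1405 to 1436 of 3603 in Hcn4, in the part that codes for the pore region.
Hcn2: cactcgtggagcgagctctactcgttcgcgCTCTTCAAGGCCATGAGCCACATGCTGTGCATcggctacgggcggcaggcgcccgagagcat
Hcn4: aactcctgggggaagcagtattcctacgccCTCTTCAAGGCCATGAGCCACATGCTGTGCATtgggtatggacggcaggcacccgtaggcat
Only the longest exact run of each pair was sought. How much of each gene a read could match in the other gene, with mismatches allowed, was not measured. Between Cacna1c and Cacna1h, an L-type and a T-type pore, the longest identical run is 17 bases.

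Both HCN genes were called lower after TAC in combined hearts, as given below, but 9 of 17 alternatives lost the Hcn4 call. Over the 29 libraries their levels had a Pearson r of 0.18. The 250 bases before their RefSeq start sites are shown as a description, both on the plus strand of GRCm38.p6. Capitals mark the GC box GGGCGG, searched on both strands together with the CRE core TGACGT, the E box form CAGCTG and the TATA box TATAAA. Other forms of the E box were not searched.
Hcn2, chr10:79716384-79716633: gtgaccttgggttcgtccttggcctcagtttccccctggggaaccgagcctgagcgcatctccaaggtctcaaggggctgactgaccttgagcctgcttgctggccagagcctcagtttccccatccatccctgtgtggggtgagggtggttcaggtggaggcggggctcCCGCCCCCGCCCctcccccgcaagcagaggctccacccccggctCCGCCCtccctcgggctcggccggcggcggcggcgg
Hcn4, chr9:58822699-58822948: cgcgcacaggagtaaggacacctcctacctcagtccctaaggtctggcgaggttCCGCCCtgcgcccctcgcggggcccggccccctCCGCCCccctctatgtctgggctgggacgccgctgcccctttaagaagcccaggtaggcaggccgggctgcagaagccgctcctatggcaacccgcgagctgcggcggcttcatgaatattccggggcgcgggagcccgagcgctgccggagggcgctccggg
The Hcn2 window is 70.4% G and C and holds 3 GC boxes, and the Hcn4 window is 71.2% G and C and holds 2. None of the other motifs, in the letters searched, was in either window. Of 32851 windows of this length before RefSeq start sites, 32.7% hold a GC box, 6.47% the CRE core, 13% the E box form CAGCTG and 12.4% the TATA box. A match is a description of the letters and not a measured binding site.

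The libraries held 10523709 to 17314739 counts in genes. Prkce checked the PKCε labels: it stood at 46.9 to 52.9 counts per 1000000 counts in genes (CPM, on TMM-normalized library sizes) in unstressed wild-type hearts and at 6.59 to 9.19 CPM in unstressed hearts labelled PKCε-null or combined. Against its label, the library labelled combined TAC replicate 2 held 31.5 CPM, against 8.21 to 11 CPM in the other 3 of its group, and wild-type TAC replicate 2 was low at 24.0 CPM, against 33.3 to 42.9 CPM in its group. Both stayed in the analysis, and the calls on members that change without both, the doubtful libraries below, are named. Prkcd counts, 11.4 to 28.0 CPM over all groups with no drop in the ablated hearts, check nothing about the PKCδ label when counted over the whole gene. The sex labels went against sex-linked transcripts (22 of 23 libraries labelled male held Xist above 1 CPM, and 10 of the 23 lacked Y-linked transcripts at that level), so the test carried no sex term. Of the 6 libraries labelled female, 4 held Y-linked transcripts at that level. Both Xist and Y-linked transcripts were at that level in 16 of the 29 libraries, and what this says about the make-up of a library was not tested. The combined TAC group has 3 of 4 libraries labelled female and the PKCδ-ablated TAC group 2 of 3, against none of the unstressed libraries. The closest pair of replicates was combined unstressed 2 and 4, with a chi-square of 1.58 per degree of freedom, above sampling noise, and each library counted as 1 sample.

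Markers were those of ventricular muscle. Myl2, the ventricular myosin light chain, was at 4920 CPM or more in every library. Of 6 atrial markers, Bmp10, Sln and Myl7 were at most 0.228, 1.66 and 1.73 CPM, while Myl4 was at 2 to 14.9 CPM, Dkk3 at 1.23 to 34.6 CPM and Stard10 at 6.32 to 25.6 CPM. Their sum was 17.65 to 28.25 CPM in unstressed wild-type libraries and 33.55 to 47.83 CPM after TAC, with 3 of 5 tested called higher, and its part in the wild-type TAC effects was not tested. Of 11 markers of conduction and pacemaker cells, Isl1 and Vsnl1 were at most 0.0866 and 0.0778 CPM in any library, while Tbx3 was at 15.8 to 30.2 CPM and Smoc2, which other cells also express, at 61.6 to 106 CPM. The summed conduction markers were 132 to 178.4 CPM in unstressed libraries and 144.4 to 178.9 CPM after TAC. The summed level of 7 fibroblast markers was 560.4 to 779.5 CPM in unstressed libraries and 959.6 to 1934 CPM after TAC, without overlap, and the part of this in the TAC effects below was not tested. In such bulk samples fewer cells of a type and less RNA per cell cannot be told apart.

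Levels between genes were compared per kilobase of exon. In unstressed wild-type hearts Cacna1c was highest at 24.9 ± 1.1 CPM per kilobase (SD, n = 4), followed by Hcn2 at 13.6 ± 1.41, Cacnb2 at 7.34 ± 0.433 and Cacna2d1 at 5.44 ± 0.33. Cacna1g stood at 2.0 ± 0.292, Hcn4 at 0.947 ± 0.263 and Cacna1h at 0.84 ± 0.0805 CPM per kilobase. With the length of the longest transcript in place of all exons, Cacnb2 (19.3) moved above Hcn2 (13.6) and Cacna1h (0.996) above Hcn4 (0.947), so these neighbours have no fixed order.

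**Figure D1:**
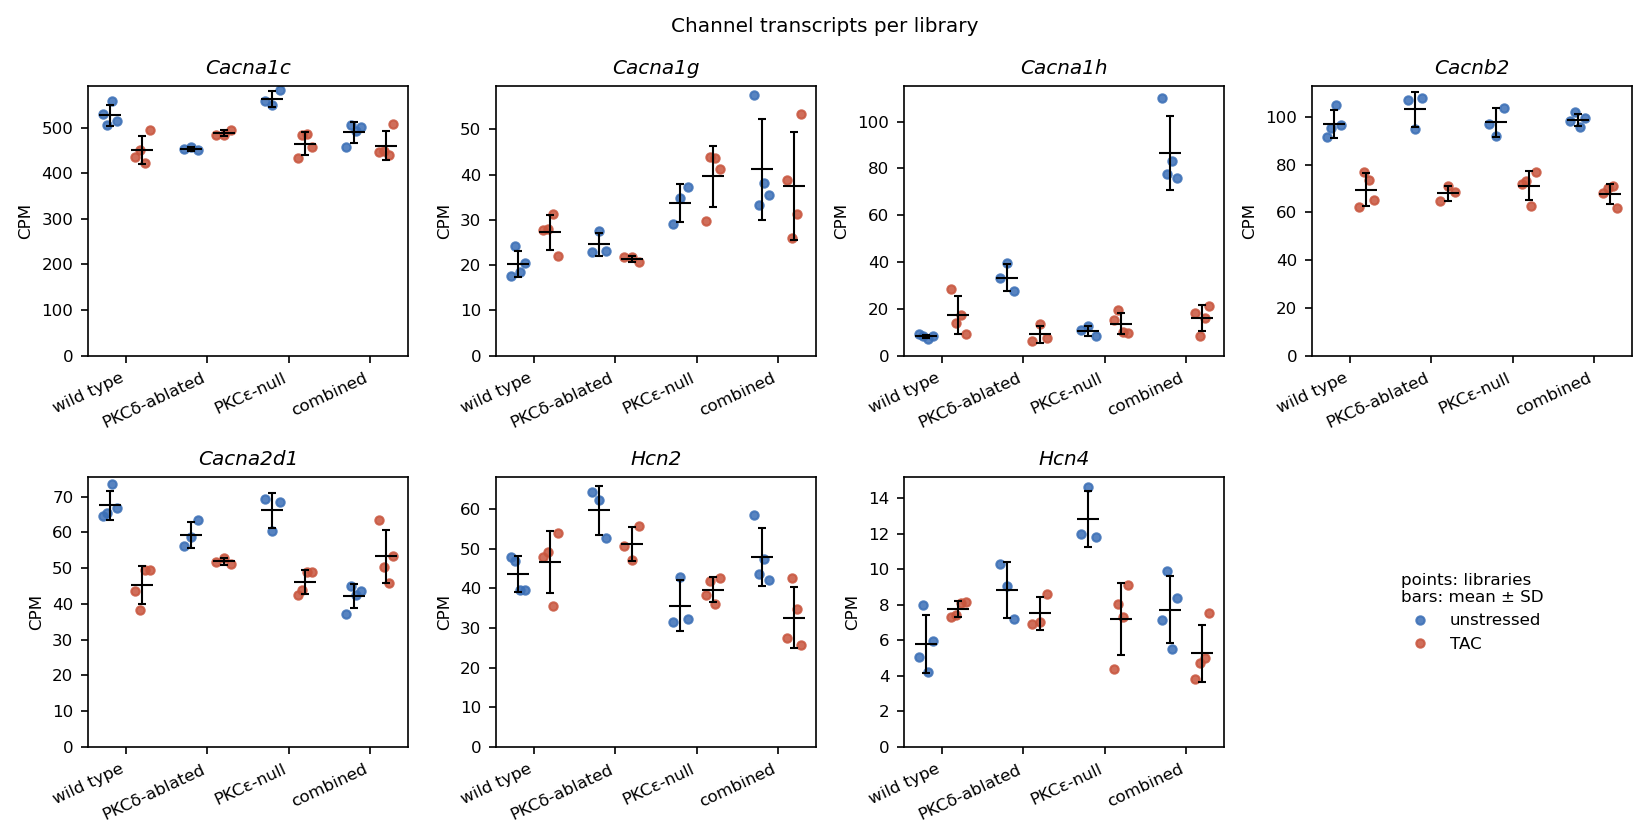
Level of each channel gene in CPM (vertical axes, from 0) in every library, by genotype, with unstressed hearts in blue and TAC hearts in red; black bars are the mean ± SD of a group of 3 or 4 libraries. The 4 combined unstressed libraries of Cacna1h lie between 76.1 and 110 CPM, above every other library, and all unstressed libraries of Cacnb2 lie above all TAC libraries.

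Cacna1c encodes the pore of the ventricular L-type channel. Unstressed wild-type libraries read 529, 506, 559 and 514 CPM, and wild-type TAC libraries 435, 450, 423 and 494 CPM. The groups did not overlap, and the mean fell from 527 ± 23.3 to 450 ± 31.1 CPM (SD, n = 4 each). The change was -0.23 ± 0.06 on the log2 scale (fitted value ± SE, adjusted p = 0.0035 by edgeR's quasi-likelihood test over all tested genes, as for every adjusted p below).

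In PKCε-null hearts Cacna1c read 559, 549 and 583 CPM unstressed and 433, 484, 485 and 457 CPM after TAC, a change of -0.28 ± 0.06 (adjusted p = 0.0015), again without overlap. In PKCδ-ablated hearts it stood lower at the start: 452, 457 and 450 CPM unstressed, below every unstressed wild-type library (log2 difference -0.22 ± 0.06, adjusted p = 0.041), a call lost in 8 of 16 alternatives (adjusted p up to 0.15), among them leaving out any of the 3 PKCδ-ablated libraries or wild-type replicate 1, 3 or 4. After TAC the PKCδ-ablated libraries read 484, 483 and 495 CPM, above the unstressed ones, with a difference of 0.11 ± 0.07 that did not pass (adjusted p = 0.27). Combined hearts read 457, 506, 493 and 502 CPM unstressed and 446, 449, 439 and 508 CPM after TAC, which overlapped (-0.09 ± 0.06, adjusted p = 0.24).

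The whole span of group means for this pore was narrow, from 450 to 564 CPM, a ratio of 1.25. In the order of group means, unstressed PKCε-null and wild-type hearts came first and overlapped each other, and the other 6 groups, from combined unstressed (489 CPM) to wild-type TAC (450 CPM), each overlapped the next. Combined TAC replicate 4, at 508 CPM, reached into the range of unstressed wild type.

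Cacnb2 encodes the main β subunit of the cardiac L-type channel, which carries the pore to the membrane. Its unstressed libraries read 91.5, 95.3, 105 and 96.7 CPM in wild type, 107, 94.9 and 108 in PKCδ-ablated, 97.2, 92.1 and 104 in PKCε-null, and 98.4, 102, 95.8 and 99.5 in combined hearts. After TAC they read 62.3, 76.9, 73.6 and 65.2 in wild type, 64.8, 70.9 and 68.6 in PKCδ-ablated, 72.1, 73.0, 62.6 and 77.1 in PKCε-null, and 68.2, 70.4, 71.0 and 61.7 in combined hearts. Every unstressed library stood above every TAC library, whatever the genotype, and within a condition all genotypes overlapped.

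The TAC effect on Cacnb2 was -0.48 ± 0.07 in wild type (adjusted p = 8.1e-06), -0.60 ± 0.08 in PKCδ-ablated (5.7e-06), -0.46 ± 0.08 in PKCε-null (6.7e-05) and -0.55 ± 0.07 in combined hearts (5.1e-07), all on the log2 scale. The differences between these effects and that of wild type were -0.12 ± 0.11, 0.03 ± 0.11 and -0.06 ± 0.10 in that order, none past the test (adjusted p = 0.7, 0.98 and 0.69). Of all members, Cacnb2 was the one whose TAC calls held in all 4 genotypes under every alternative run.

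Cacna2d1 encodes the α2δ-1 subunit, an extracellular partner of the pore and the binding site of gabapentin. Wild-type libraries read 64.5, 65.4, 73.5 and 66.7 CPM unstressed and 43.5, 38.4, 49.6 and 49.4 CPM after TAC, without overlap. This fall of 1.49-fold (log2 -0.58 ± 0.09, adjusted p = 1e-05) had a counterpart in PKCε-null hearts, with 69.4, 60.4 and 68.6 CPM unstressed and 42.4, 43.9, 49.0 and 48.9 CPM after TAC (-0.52 ± 0.09, adjusted p = 0.00014). In PKCδ-ablated hearts the libraries read 56.1, 58.7 and 63.3 CPM unstressed and 51.6, 52.9 and 51.1 CPM after TAC. These did not overlap either, but the difference of -0.20 ± 0.10 did not pass (adjusted p = 0.16). It passed with the sex label as a term (-0.30, adjusted p = 0.047) and with only the groups compared (adjusted p = 0.049).

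Combined hearts began low. Their unstressed libraries read 37.3, 45.1, 42.5 and 43.5 CPM, all below every other unstressed library, and differed from wild type by -0.68 ± 0.09 (adjusted p = 2.8e-06). The same unstressed combined libraries stood apart in other cell markers. Summed endothelial markers were 775.4 to 896.3 CPM, against 1027 to 1068 CPM in wild type (4 of 6 called lower), and summed macrophage markers 259.9 to 269.5 CPM, against 215 to 242.1 CPM (2 of 5 called higher). Their part in the differences of unstressed combined hearts in Cacna2d1, Cacna1g and Cacna1h was not tested. After TAC the combined libraries read 63.4, 50.3, 45.8 and 53.5 CPM, a rise of 1.27-fold (0.34 ± 0.09, adjusted p = 0.0025) where wild type fell. The difference between these TAC effects was 0.92 ± 0.12 (adjusted p = 1.4e-05), and it passed under every alternative. The rise within combined hearts did not pass with the sex label as a term (0.22, adjusted p = 0.11) or with only libraries labelled male (0.12, adjusted p = 0.54), a fit with 1 combined TAC library. After TAC the combined libraries differed from wild type by 0.24 ± 0.09 (adjusted p = 0.096), which passed without combined TAC replicate 3 (0.30, adjusted p = 0.03).

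The T-type pores were less abundant. Cacna1g, the Cav3.1 pore, read 17.7, 24.3, 18.5 and 20.4 CPM in unstressed wild-type hearts and 57.6, 33.4, 38.2 and 35.4 CPM in unstressed combined hearts. These groups did not overlap, and the combined hearts were 2.03-fold higher (log2 1.02 ± 0.19, adjusted p = 0.00037). Unstressed PKCε-null libraries read 29.1, 34.9 and 37.3 CPM, also above every wild-type one, with a difference of 0.74 ± 0.21 just outside the threshold (adjusted p = 0.053) that passed in 5 of 16 alternatives, among them without both doubtful libraries (adjusted p = 0.04) and without wild-type unstressed replicate 2 (0.84, adjusted p = 0.037). Unstressed PKCδ-ablated libraries read 23.0, 27.6 and 23.1 CPM and overlapped wild type (0.28 ± 0.21, adjusted p = 0.51).

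After TAC Cacna1g read 27.8, 28.0, 31.3 and 22.0 CPM in wild type, 21.8, 21.7 and 20.6 in PKCδ-ablated, 29.7, 44.0, 43.7 and 41.2 in PKCε-null, and 38.8, 26, 31.4 and 53.5 in combined hearts. None of the 4 TAC effects passed: 0.43 ± 0.19 in wild type (adjusted p = 0.089), -0.20 ± 0.23 in PKCδ-ablated (0.55), 0.23 ± 0.20 in PKCε-null (0.43) and -0.14 ± 0.18 in combined hearts (0.58). That of wild type passed with only libraries labelled male (0.53, adjusted p = 0.026) and with only the groups compared (0.43, adjusted p = 0.011). By group mean, the 4 groups labelled PKCε-null or combined (33.8 to 41.2 CPM) stood above the other 4 (20.2 to 27.3 CPM), though single libraries of the 2 kinds overlapped after TAC. Against wild type after TAC the differences of PKCε-null (0.54 ± 0.19, adjusted p = 0.27) and combined hearts (0.46 ± 0.19, adjusted p = 0.14) did not pass. Without combined TAC replicate 2 the latter was 0.59, just past the threshold (adjusted p = 0.05 after rounding).

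Cacna1h, the Cav3.2 pore, had the widest range as a ratio, from 6.35 to 110 CPM over single libraries, resting on 72 to 1584 counts. Unstressed wild-type libraries read 9.16, 8.19, 7.23 and 8.22 CPM and PKCε-null ones 10.8, 12.6 and 8.25 CPM, which overlapped (0.35 ± 0.37, adjusted p = 0.7). Unstressed PKCδ-ablated libraries read 33.1, 39.4 and 27.6 CPM, and combined ones 110, 77.5, 83.1 and 76.1 CPM. These 4 groups fall into 3 levels without overlap: wild type with PKCε-null, then PKCδ-ablated, then combined.

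Against wild type, unstressed Cacna1h was 4.04-fold higher with PKCδ ablated (log2 2.02 ± 0.34, adjusted p = 0.0011) and 10.5-fold higher in combined hearts (3.39 ± 0.32, adjusted p = 2.3e-07). Both calls held under every alternative. After TAC the order was gone: the libraries read 28.6, 14.0, 17.5 and 9.33 CPM in wild type, 6.35, 13.3 and 7.7 in PKCδ-ablated, 15.0, 19.3, 10.1 and 9.8 in PKCε-null, and 18.3, 8.52, 16.0 and 21.2 in combined hearts. The other 3 TAC groups all overlapped wild type, and none differed from it by the test (adjusted p = 0.85, 0.71 and 0.87 for PKCδ-ablated, PKCε-null and combined hearts). PKCδ-ablated hearts were nonetheless 1.9-fold lower by the fitted value (-0.93 ± 0.34, unadjusted p = 0.013 by the same test). In that comparison no gene at all passed after adjustment, so equal levels are not shown.

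TAC went with a fall of Cacna1h of 3.65-fold in PKCδ-ablated hearts (-1.87 ± 0.36, adjusted p = 0.00057) and 5.38-fold in combined hearts (-2.43 ± 0.29, adjusted p = 8.2e-07), without overlap of the groups. Wild type moved the other way, 2.11-fold up (1.08 ± 0.32, adjusted p = 0.013), but this call rested on wild-type TAC replicate 1 with its 28.6 CPM: without it the rise was 0.73 (adjusted p = 0.078). In PKCε-null hearts the change was 0.38 ± 0.35 (adjusted p = 0.45). Set against the wild-type effect, the TAC effect was lower by 2.94 ± 0.48 on the log2 scale in PKCδ-ablated hearts (adjusted p = 0.0031) and by 3.50 ± 0.43 in combined hearts (adjusted p = 1.8e-05), in every alternative as well. The unstressed libraries enter both the genotype comparison and the TAC effect of a genotype, so those 2 results on Cacna1h are not independent.

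**Figure D2:**
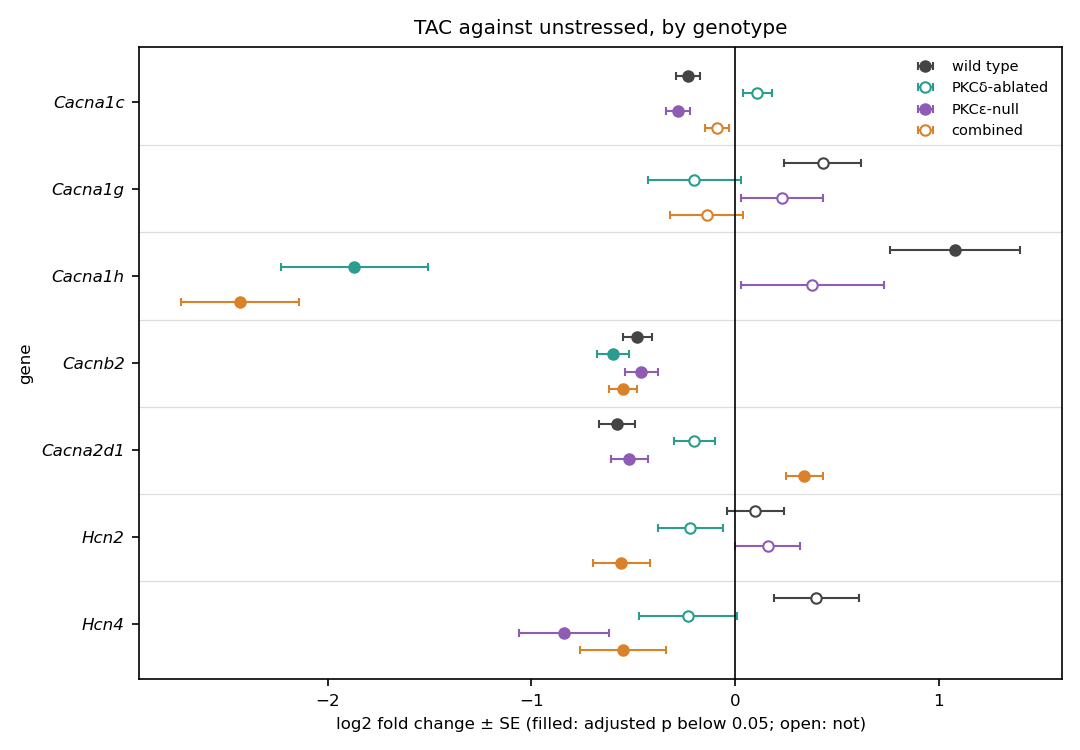
Change of each channel gene after TAC against unstressed hearts of the same genotype, as fitted log2 fold change ± SE (horizontal axis); filled points have an adjusted p below 0.05. Cacnb2 lies left of 0 in all 4 genotypes, whereas Cacna1h lies right of 0 in wild type (1.08) and far left in PKCδ-ablated (-1.87) and combined hearts (-2.43).

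Hcn2 encodes the HCN isoform of working ventricular muscle. Wild-type libraries read 48.0, 46.9, 39.6 and 39.7 CPM unstressed and 47.8, 49.3, 35.6 and 53.9 CPM after TAC, and overlapped (0.10 ± 0.14, adjusted p = 0.63). PKCε-null libraries read 31.6, 43.0 and 32.4 CPM unstressed and 38.3, 41.9, 36.1 and 42.6 CPM after TAC, with no call for TAC (0.16 ± 0.16, adjusted p = 0.49). PKCδ-ablated libraries read 64.3, 62.2 and 52.7 CPM unstressed, all above every unstressed wild-type one, but the difference of 0.45 ± 0.15 did not pass (adjusted p = 0.079). It passed in 3 of 16 alternatives: without both doubtful libraries (adjusted p = 0.049), with only libraries labelled male (0.042) and with only the groups compared (0.0078). After TAC they read 50.7, 47.1 and 55.7 CPM (-0.22 ± 0.16, adjusted p = 0.33).

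Combined hearts were the exception for TAC. Hcn2 read 58.5, 43.7, 47.4 and 42.0 CPM unstressed and 27.5, 42.6, 34.8 and 25.7 CPM after TAC, a fall of 1.47-fold (-0.56 ± 0.14, adjusted p = 0.0025) in which the ranges met at combined TAC replicate 2, the library that goes against its label. With only libraries labelled male this call was lost (-0.46, adjusted p = 0.1). This TAC effect was lower than that of wild type by 0.65 ± 0.20 (adjusted p = 0.018), a call lost without combined unstressed replicate 1 (adjusted p = 0.052) and with only libraries labelled male (adjusted p = 0.22). After TAC the combined libraries were below wild type (-0.52 ± 0.14, adjusted p = 0.029), a call lost in 8 of 17 alternatives. Among these were leaving out wild-type TAC replicate 1, 2 or 4 or combined TAC replicate 1 or 4, and keeping only libraries labelled male (adjusted p = 0.79). No neighbours in the order of the 8 group means, from 32.6 CPM in combined TAC to 59.7 CPM in PKCδ-ablated unstressed hearts, were free of overlap.

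Hcn4 encodes the sinoatrial isoform and was low, with 42 to 169 counts a library. Unstressed libraries read 5.05, 7.96, 4.22 and 5.95 CPM in wild type, 10.3, 9.04 and 7.19 in PKCδ-ablated, and 7.13, 9.89, 5.51 and 8.38 in combined hearts, all of which overlapped. Unstressed PKCε-null libraries read 12.0, 14.6 and 11.8 CPM, above each of the other 26 libraries of the series. They were 2.19-fold higher than wild type (1.13 ± 0.22, adjusted p = 0.0039), in every alternative. Markers of skeletal muscle were also higher in this group: 2 of 6 tested were called, the myosin genes Myh2 (log2 6.90 ± 1.25, adjusted p = 0.0036) and Myh1 (1.71 ± 0.40, adjusted p = 0.017). Myh2 stood at 14.5 to 28.8 CPM in these libraries and at 0.1 to 0.301 CPM in unstressed wild type. Their summed level was 20.62 to 34.14 CPM against 4.079 to 5.525 CPM in wild type, and their part in the Hcn4 difference was not tested. The summed conduction markers were 153.2 to 167.4 CPM in unstressed PKCε-null hearts, against 141.7 to 178.4 CPM in wild type. Smoc2 alone stood at 61.6 to 106 CPM over all libraries, so this sum can hide a change in a low marker. The part of conduction cells in the Hcn4 difference was not tested.

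After TAC Hcn4 read 7.31, 7.40, 8.10 and 8.15 CPM in wild type, 6.94, 7.0 and 8.58 in PKCδ-ablated, 4.38, 8.03, 7.31 and 9.09 in PKCε-null, and 3.83, 4.71, 4.98 and 7.56 in combined hearts. It fell by 1.78-fold in PKCε-null hearts (-0.84 ± 0.22, adjusted p = 0.0045), without overlap. In combined hearts it was 1.46-fold lower with overlap (-0.55 ± 0.21, adjusted p = 0.036), and 9 of 17 alternatives lost that call. Those include leaving out both doubtful libraries (-0.50, adjusted p = 0.088), combined TAC replicate 1, 2 or 3, or combined unstressed replicate 2 or 4, each in turn. In wild type (0.40 ± 0.21, adjusted p = 0.14) and PKCδ-ablated hearts (-0.23 ± 0.24, adjusted p = 0.5) it did not pass. The difference from the wild-type effect passed in combined hearts (-0.95 ± 0.30, adjusted p = 0.02, unadjusted p = 0.0034 by the same test). In PKCε-null hearts it did not pass (-1.24 ± 0.30, adjusted p = 0.12, unadjusted p = 0.00031 by the same test), so the PKCε-null fall is not shown to differ from wild type. The adjustment runs within each comparison, where 25.1% of all genes were called for combined and 0.0363% for PKCε-null hearts. Adjusted p-values of different comparisons therefore do not rank these differences. Several of these results turned on wild-type unstressed replicate 2, the highest of its group at 7.96 CPM: without it the wild-type TAC effect was 0.60 (adjusted p = 0.038), the unstressed differences of PKCδ-ablated and combined hearts from wild type 0.78 and 0.59 (adjusted p = 0.047 for both), and the PKCε-null difference of TAC effects -1.43 (adjusted p = 0.044). After TAC, combined hearts differed from wild type by -0.55 ± 0.21 (adjusted p = 0.11), and by -0.78 without combined TAC replicate 4 (adjusted p = 0.025).

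**Figure D3:**
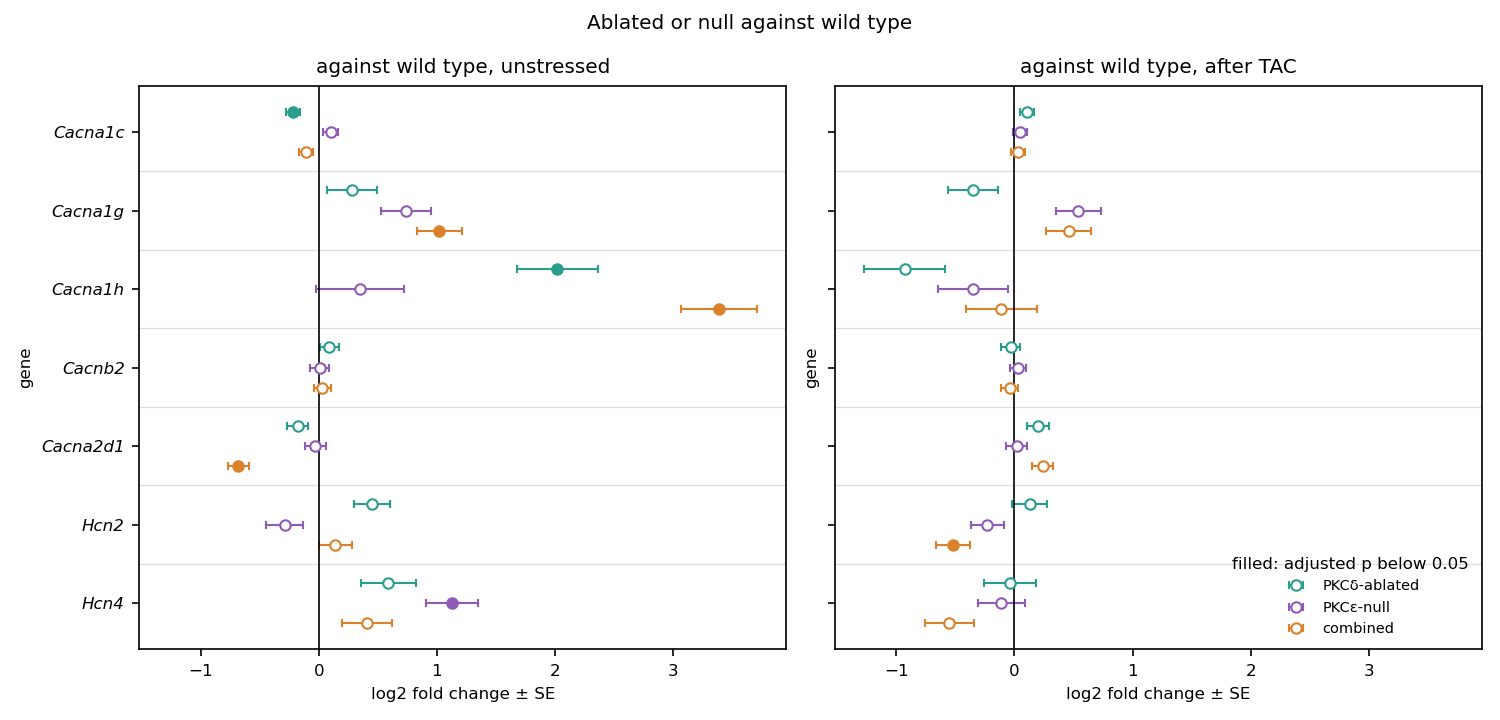
Difference of each channel gene from wild type in PKCδ-ablated, PKCε-null and combined hearts, unstressed (left) and after TAC (right), as fitted log2 fold change ± SE; filled points have an adjusted p below 0.05. The unstressed Cacna1h differences of 2.02 and 3.39 have no counterpart after TAC, where Hcn2 in combined hearts is the filled point.

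Counted over the set, TAC raised 1 of the 7 members in wild type (Cacna1h) and lowered 3 (Cacna1c, Cacnb2, Cacna2d1), where 17.8% of all tested genes rose and 17.9% fell. In PKCδ-ablated hearts 0 rose and 2 fell (Cacna1h, Cacnb2), against 12.9% and 14% of all genes. In PKCε-null hearts 0 rose and 4 fell (Cacna1c, Cacnb2, Cacna2d1, Hcn4), against 14.5% and 14.3%. In combined hearts 1 rose (Cacna2d1) and 4 fell (Cacna1h, Cacnb2, Hcn2, Hcn4), against 22% and 21.8%. The counts of members that fell are thus above the share of all genes in each genotype, but with 7 genes each member is a large share of the set. Without both doubtful libraries the counts called in either direction were 4 in wild type, 2 in PKCδ-ablated and 4 in PKCε-null hearts, as with all libraries, and in combined hearts 4 in place of 5, since Hcn4 was lost. The median TAC effect of the 7 was 0.10, -0.22, -0.28 and -0.55 on the log2 scale in the order of the genotypes, beside medians of all genes between -0.02 and 0.00.

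Against wild type in unstressed hearts, the test called 2 members in PKCδ-ablated hearts (Cacna1h higher, Cacna1c lower), where 5.37% of all genes were called in either direction. It called 1 in PKCε-null hearts (Hcn4 higher; 3% of all genes) and 3 in combined hearts (Cacna1g and Cacna1h higher, Cacna2d1 lower; 29.2%). After TAC it called none in PKCδ-ablated hearts, where edgeR called 0% of all genes. There 789 genes had an unadjusted p below 0.05, 2 of them members, and DESeq2 called 1 gene. It called none in PKCε-null hearts (0.0436% of all genes) and 1 in combined hearts (Hcn2 lower; 6.76%). The 3 comparisons within a condition share the wild-type libraries.

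The difference of the TAC effect from that of wild type was called for 1 member in PKCδ-ablated hearts (Cacna1h; 1.27% of all genes), for none in PKCε-null hearts (0.0363%), and for 4 in combined hearts, with Cacna2d1 higher and Cacna1h, Hcn2 and Hcn4 lower (25.1%). In PKCδ-ablated hearts Cacna1c came close (0.33 ± 0.09, adjusted p = 0.06) and passed in 4 of 23 alternatives, 2 of them without wild-type unstressed replicate 2 (0.35, adjusted p = 0.049) or wild-type TAC replicate 4 (0.38, adjusted p = 0.025). In combined hearts Cacna1g (-0.57 ± 0.27, adjusted p = 0.13) passed without combined TAC replicate 4 (-0.79, adjusted p = 0.015). All 3 sets of differences share the wild-type libraries.

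Of 46 further channel genes and regulators, 27 were tested. TAC raised 6 and lowered 3 of them in wild type, raised 3 and lowered 6 in PKCδ-ablated, raised 4 and lowered 3 in PKCε-null, and raised 7 and lowered 7 in combined hearts. Of all tested genes, 17.8% rose and 17.9% fell in wild type, and 12.9% and 14% in PKCδ-ablated hearts. In PKCε-null hearts these shares were 14.5% and 14.3%, and in combined hearts 22% and 21.8%. The counts were not tested as a set. Cacnb1, the skeletal muscle β subunit, rose in all 4 genotypes (wild type 0.85 ± 0.20, PKCδ-ablated 0.68 ± 0.23, PKCε-null 0.86 ± 0.22, combined 0.56 ± 0.19 on the log2 scale), from 7.62 ± 1 to 13.8 ± 1.33 CPM in wild type (SD, n = 4 each). Cacnb3 rose in wild type (0.84 ± 0.14), PKCε-null (1.04 ± 0.16) and combined hearts (0.46 ± 0.14). Cacnb4 passed in combined hearts (1.27 ± 0.36, from a mean of 0.395 to 0.994 CPM), while in the other genotypes its fitted differences were below 0 and did not pass. Cacnb4 was near the floor, at no more than 1.8 CPM in any library. Cacnb3 is also known from smooth muscle and nerve. The summed smooth muscle markers overlapped between conditions (502.1 to 674.9 CPM unstressed, 389 to 683.5 CPM after TAC). Summed Schwann and nerve markers were 16.58 to 20.12 CPM unstressed and 20.47 to 27.2 CPM after TAC in wild type. In PKCε-null hearts they were 13.68 to 15.09 and 17.77 to 32.51 CPM. They overlapped in combined (22.86 to 32.62 and 26.31 to 54.75 CPM) and PKCδ-ablated hearts (18.99 to 21.25 and 17.5 to 21.01 CPM). The part of either cell type in the Cacnb3 rise was not tested.

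Among other calcium channel genes, Cacng6, a γ subunit of striated muscle, fell in all 4 genotypes by 1.81 to 2.48 on the log2 scale, at levels no higher than 1.34 CPM in any library. Cacna2d2, a second α2δ subunit, fell in combined hearts (-0.94 ± 0.21, adjusted p = 0.00064), where Cacna2d1 rose. Cacna1a rose in wild type (0.41 ± 0.12) and fell in combined hearts (-0.55 ± 0.12). Rrad and Gem, small GTPases that bind β subunits and inhibit the L-type channel, rose in wild type (0.53 ± 0.21 and 0.78 ± 0.29), and their relative Rem1 fell in combined hearts (-0.47 ± 0.16). Ahnak, a large scaffold that binds the β subunit, fell in wild type (-0.67 ± 0.09), PKCδ-ablated (-0.42 ± 0.10) and PKCε-null hearts (-0.44 ± 0.09).

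**Figure D4:**
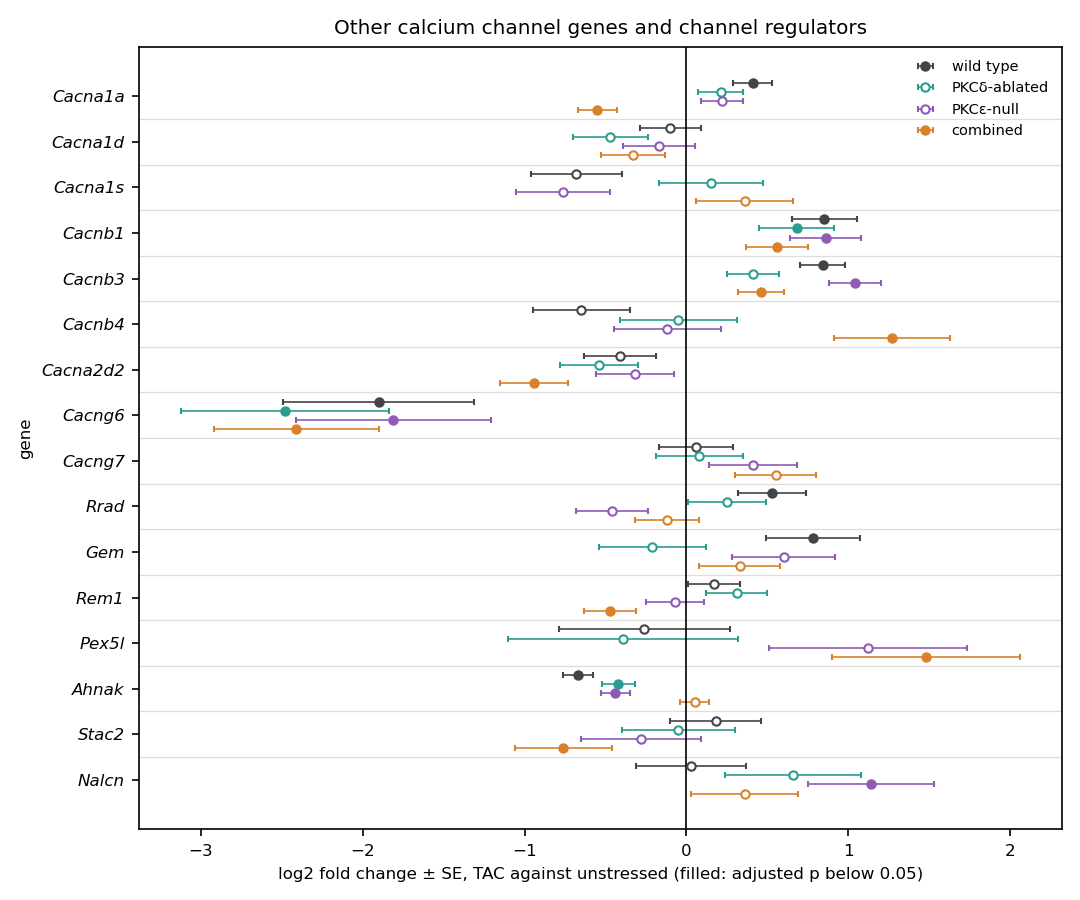
Change after TAC of the tested calcium channel subunits outside the 7 members and of channel regulators, as fitted log2 fold change ± SE by genotype; filled points have an adjusted p below 0.05. Cacnb1 lies right of 0 and Cacng6 left of 0 in all 4 genotypes.

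Of 14 sodium channel genes 10 were tested, with 1 higher and 1 lower after TAC in wild type, 1 and 4 in PKCδ-ablated, 1 and 1 in PKCε-null, and 3 and 2 in combined hearts. Among all tested genes 17.8% were higher and 17.9% lower in wild type, and 12.9% and 14% in PKCδ-ablated hearts. The shares were 14.5% and 14.3% in PKCε-null and 22% and 21.8% in combined hearts. Scn4a, the skeletal muscle sodium channel pore, fell in PKCδ-ablated (-0.60 ± 0.17), PKCε-null (-0.94 ± 0.16) and combined hearts (-1.84 ± 0.15, from 134 ± 19.2 to 37.5 ± 4.53 CPM). Scn10a fell in PKCδ-ablated (-3.90 ± 0.51) and combined hearts (-2.05 ± 0.38), the genotypes in which Cacna1h fell, from 9.04 ± 1.48 and 7.37 ± 2.2 CPM. Scn7a fell in wild type (-0.51 ± 0.18) and rose in combined hearts (1.03 ± 0.19).

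Across the 29 libraries and 10245 genes (those whose mean log2 CPM reached 2), the genes whose levels ran most like a member's were ranked by Pearson's r, as a description, since the libraries share groups. Cacna1h ran with Scd2 (r = 0.950), Tmem116 (0.917) and Timm10 (0.907). Cacnb2 ran with Phc3 (0.948), Pogz (0.937) and Ncoa6 (0.935), and Cacna2d1 with Itgb1bp2 (0.912), Rasal2 (0.893) and Ubr3 (0.881). Cacna1g ran with Epn3 (0.827) and Igfals (0.820), and Cacna1c with Ogdh (0.829), Trappc9 (0.822) and Hic2 (0.815). The closest genes to Hcn2 were Camk2b (0.830), Abcc4 (0.769) and Spata13 (0.766), and to Hcn4 Grip2 (0.779), Eepd1 (0.769) and Smad3 (0.748). No member was among the 3 closest genes of another member. Between members the highest r was 0.57, for Cacna1c with Cacna2d1, and the lowest -0.52, for Cacna1h with Cacna2d1.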

How the data were processed

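Polyadenylated RNA was sequenced from 29 mouse heart libraries. The authors deposited unnormalized read counts for each gene symbol. The submitters' processing notes name mm10, Bowtie2, TopHat, TopHat2 2.0.10, HTSeq, DESeq and edgeR without roles. Each library file lists 23420 genes and 5 rows for reads outside genes, which stayed out of library sizes (0.776% to 0.942% ambiguous and 8.01% to 14.2% not uniquely aligned). Since those reads are listed apart, a gene with a near-identical copy can be undercounted. The 23391 gene names shared with the deposited matrix had identical counts.

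Groups were compared by quasi-likelihood testing in edgeR 4.0.16 (with limma 3.58.1 in R 4.3.3; robust fit, TMM, filter on low counts by group) with 8 group means and no sex term, 21 residual degrees of freedom, and Benjamini-Hochberg adjustment over 13765 genes at 0.05 in each of 13 comparisons. CPM use TMM library sizes. SE is the size of the log2 fold change over the square root of F. At depths of 10523709 to 17314739 counts, the lowest member count was 42. The script was tested on simulated data. Named were the members, Prkcd and Prkce, the 3 genes most like each member, up to 8 called further channel genes per TAC effect by smallest adjusted p, and markers a result turned on. Results of some of these genes are left out of the text. The members and lists were chosen with earlier results of these data known. Alternatives were RLE normalization, no filter, the sex label or a score of Y-linked transcripts as a term, only libraries labelled male, a replicate block, only the groups compared, DESeq2 1.42.0, leaving out the 2 libraries with doubtful Prkce levels, leaving out each library in turn, and, for levels per kilobase, the longest transcript. RefSeq promoter windows were matched for 5 of the 7 members; those of Hcn2 and Hcn4, the ones that lie outside the annotated gene, are shown. Python 3.11.15 and matplotlib 3.10.9 made the figures.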

Additional observations from a re-analysis of the deposited data

Results flagged for a closer look

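The TAC effect differed from that of wild type by a test of the difference itself for Cacna1h in PKCδ-ablated hearts (-2.94 on the log2 scale) and in combined hearts (-3.50). In combined hearts it also differed for Cacna2d1 (0.92), Hcn2 (-0.65) and Hcn4 (-0.95). Cacna1c in the combined TAC group had 1 library far from the other 3, replicate 4 at 508 CPM. This was 1 of 35 groups of 4 libraries checked for such a gap, and chance marks about 1 in 20.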

How the results depend on the processing

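Of 1652 values of a member under an alternative, 1592 kept their side of the threshold, 28 moved past it, 32 lost it, and 0 called values changed sign. Uncalled values near 0 could turn sign, as Cacna1g for TAC in combined hearts (-0.39 to 0.08) and Cacna1h in combined hearts against wild type after TAC (-0.33 to 0.24). The number of members called moved most in comparisons with the combined TAC group. For the TAC effect in combined hearts it went from 5 to 3 with the sex label as a term and to 2 with only libraries labelled male. For combined hearts against wild type after TAC it went from 1 to 0 with the sex label, with only libraries labelled male and with only the groups compared, and to 0 to 2 on leaving out a library. For the combined difference of TAC effects it went from 4 to 2 with only libraries labelled male. Against wild type unstressed it went from 2 to 1 in PKCδ-ablated hearts without the filter on low counts (1 to 3 on leaving out a library) and from 1 to 2 in PKCε-null hearts with only libraries labelled male, only the groups compared, DESeq2, or without both doubtful libraries (1 to 2 on leaving out a library). For the difference of TAC effects it went from 1 to 3 in PKCδ-ablated hearts with only the groups compared and to 2 with DESeq2 (1 to 2 on leaving out a library). In PKCε-null hearts it went from 0 to 1 with DESeq2 (0 to 1 on leaving out a library). The cause was not tested. Replicate numbers did not pair the libraries (correlations of same-numbered deviations from -0.108 to 0.181): with the replicate block the PKCε-null difference of TAC effects called 1 member, Hcn4 (-1.35, adjusted p = 0.042), the PKCδ-ablated unstressed comparison lost Cacna1c (adjusted p = 0.067) and gained Hcn4 (0.69, adjusted p = 0.045), and no other member's call changed. Counts over all genes that moved by over 1.5 times were, with only libraries labelled male, 3696 to 1600 (TAC in PKCδ-ablated), 6027 to 2840 (TAC in combined), 175 to 85 and 3461 to 910 (differences of TAC effects in PKCδ-ablated and combined), and 6 to 46 and 930 to 1 (PKCε-null and combined against wild type after TAC). For combined against wild type after TAC the count was 122 with the sex label, 1691 with the Y-linked score and 2 with only the groups compared. For PKCε-null after TAC it was 17 with the Y-linked score, 2 with only the groups compared, 24 without both doubtful libraries and 54 with DESeq2. The difference of TAC effects called 515 (only the groups compared) and 311 (DESeq2) genes in PKCδ-ablated hearts, against 175. In PKCε-null hearts it called 15 (Y-linked score), 10 (replicate block), 8 (without both doubtful libraries) and 52 (DESeq2), against 5. Leaving out 1 library gave 2461 to 3312 calls for TAC in PKCδ-ablated hearts, 210 to 779 and 112 to 506 for PKCδ-ablated and PKCε-null against wild type unstressed, 2 to 12 and 140 to 1407 for PKCε-null and combined against wild type after TAC, and 56 to 256 and 3 to 26 for the differences of TAC effects in PKCδ-ablated and PKCε-null hearts. The lowest counts of a member in a library were those of Hcn4 (42) and Cacna1h (72).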
